A study of Mus musculus with 40 samples.

Results

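The genes described here encode the proteasome and its close partners, and they were the 50 of the 21448 gene symbols in the counts that begin with Psma, Psmb, Psmc, Psmd, Psme, Psmf or Psmg followed by a digit. Each gene was read on its most counted probe. By symbol, they fell into 8 alpha subunits of the 20S core (Psma), 8 constitutive beta subunits (Psmb), 3 inducible beta subunits of the immunoproteasome (Psmb8, Psmb9 and Psmb10), 6 ATPases of the 19S regulator (Psmc), 14 other 19S genes (Psmd), 5 activator genes (Psme), the inhibitor gene Psmf1 and 4 chaperone genes (Psmg). The remaining symbol, Psmc3ip, fits the rule by its spelling but belongs to a meiotic recombination factor and was kept apart. The most counted probe of 49 of these genes passed the filter on low counts, as it did for 12412 genes in all. The exception was Psmb11, the thymus subunit, which had reads in 2 libraries.

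The animals were wildtype Crl:CD1(ICR) mice, an outbred stock, dosed by oral gavage for 90 days with GenX, a fluorinated ether acid given as its ammonium salt. Daily doses were 0.1, 0.5 and 5 mg/kg of body weight (bw), each given in deionized water to males and to females, and control mice of each sex (0 mg/kg) received deionized water. From every group, 5 of the dosed mice were sequenced, the first by animal number. All mice were housed individually, and their age is not given in the sources used here. Each library came from 1 section of formalin-fixed liver of 1 mouse, so it holds the RNA of every cell type in the section, and fewer cells of a type cannot be told apart from less RNA per cell. Female mouse 355 (0.5 mg/kg) did not enter the fits, since its library held 6711981 reads where the mean over all libraries less 2 SD was 9680193, which left 39 libraries and 4 mice in that group.

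The proteasome degrades proteins that carry ubiquitin chains. Its core particle is a barrel of stacked rings in which alpha subunits form the gate and beta subunits hold the proteolytic sites, and the 19S regulatory particle, built from an ATPase ring and a lid, recognizes, unfolds and feeds in the substrate. Under interferon gamma, the catalytic beta subunits Psmb5, Psmb6 and Psmb7 give way to the inducible Psmb8, Psmb9 and Psmb10. Dedicated chaperones assemble the core, and the transcription factor Nfe2l1 (Nrf1) raises subunit genes together when proteasome activity is short, through antioxidant response elements (ARE) in their promoters. In liver, the proteasome degrades many short-lived enzymes and regulators, among them cytochromes P450 and the transcription factors that respond to nutrients.

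The bases before the start of transcription are shown for 2 alpha subunit genes and a 19S gene that edgeR called at 5 mg/kg, and for 2 constitutive catalytic genes that it did not call, because subunit genes are known to share promoter elements. RefSeq windows of 300 bases (250 before and 50 after an annotated start, build GRCm38.p6) were found for 42 of the 50 genes, 45 windows in all, and the 250 bases before the start are printed 5′ to 3′ on the strand of the gene. The regions are chr12:70974373-70974622 on the plus strand for Psma3, chr12:55383972-55384221 on the plus strand for the first of the 2 windows of Psma6, chr7:29180674-29180923 on the minus strand for Psmd8, chr14:54617996-54618245 on the minus strand for Psmb5 and chr11:70525107-70525356 on the plus strand for Psmb6. Capitals mark CCAAT boxes (CCAAT, either strand) and ARE cores (TGACNNNGC, either strand).
Psma3: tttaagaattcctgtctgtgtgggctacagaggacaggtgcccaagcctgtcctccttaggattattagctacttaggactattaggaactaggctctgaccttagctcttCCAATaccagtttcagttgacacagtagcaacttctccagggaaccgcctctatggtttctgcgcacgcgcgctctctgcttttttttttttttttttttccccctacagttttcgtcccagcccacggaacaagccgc
Psma6: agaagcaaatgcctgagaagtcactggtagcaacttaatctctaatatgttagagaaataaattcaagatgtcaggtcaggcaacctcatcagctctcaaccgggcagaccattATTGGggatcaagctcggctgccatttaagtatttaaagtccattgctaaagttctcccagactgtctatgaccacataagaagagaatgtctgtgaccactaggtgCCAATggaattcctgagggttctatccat
Psmd8: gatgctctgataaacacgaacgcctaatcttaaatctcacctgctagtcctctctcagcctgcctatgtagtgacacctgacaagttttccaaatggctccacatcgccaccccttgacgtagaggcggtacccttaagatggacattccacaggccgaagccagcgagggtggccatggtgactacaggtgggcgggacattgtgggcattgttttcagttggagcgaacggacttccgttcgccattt
Psmb5: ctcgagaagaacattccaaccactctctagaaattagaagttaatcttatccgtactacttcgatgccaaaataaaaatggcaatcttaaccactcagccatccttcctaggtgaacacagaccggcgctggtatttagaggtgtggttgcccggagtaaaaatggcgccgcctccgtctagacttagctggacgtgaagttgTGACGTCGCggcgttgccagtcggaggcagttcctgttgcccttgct
Psmb6: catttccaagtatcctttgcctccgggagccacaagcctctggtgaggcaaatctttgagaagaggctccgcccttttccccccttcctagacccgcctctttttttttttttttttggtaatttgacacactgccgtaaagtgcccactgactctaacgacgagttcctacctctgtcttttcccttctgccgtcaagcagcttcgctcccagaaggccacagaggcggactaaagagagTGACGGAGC
The window of Psmd8 holds neither motif, and neither does the other window of Psma6, which is not printed. A gene was counted when any of its windows held the motif. Over whole windows, an ARE core was found in 6 of the 42 genes and in 12.4% of all 32851 windows, and in 0 of the 8 genes that edgeR called in any comparison described below. A CCAAT box was found in 15 of the 42 genes, in 4 of those 8 called genes and in 37.4% of all windows. The interferon element ISRE (a pair of GAAA boxes with any 2 bases between them, either strand) was found in 5 of the 42 genes and in 3.44% of all windows, and the peroxisome proliferator element (PPRE, AGGTCA repeated after any 1 base, either strand) in 0 of the 42 genes and in 0.0396% of windows. A match is only a match of letters, and its absence says only that these letters are not in the window.

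The 39 libraries held 10341341 to 15562253 reads. TempO-Seq amplifies joined probe pairs, and counts gathered around the number of reads that 1 captured molecule gives, so reads were also expressed as molecules. Males at 5 mg/kg held a median of 591295 molecules (range 483008 to 656743) and male controls 329947 (287244 to 369995). Males at 0.5 mg/kg held a median of 448079 (361912 to 526724). The range of male controls did not overlap with that at 5 mg/kg. In females, the medians ran the other way, with 320470 at 5 mg/kg and 418492 in controls, and the ranges overlapped. The liver label was checked on 8 hepatocyte markers, whose summed level was 21620 to 49540 CPM (reads on a probe relative to all reads of its library, TMM scaled) and which all had reads in every group. At 5 mg/kg, 5 of these 8 fell in both sexes (Apoa1, Ass1, Cps1, Hnf4a and Serpina1a), against 3.75% of all genes in males and 2.00% in females. The summed level of all 8 was 26000 ± 2843 CPM (SD, n = 5) in males against 42340 ± 3124 in controls, and 26320 ± 3880 against 38400 ± 7215 in females. The part of molecule numbers and of hepatocyte transcripts in the proteasome results below was not tested. As a check of exposure, the peroxisomal enzyme gene Ehhadh rose by 5.69 ± 0.20 (log2 fold change ± SE) in males and by 4.96 ± 0.19 in females at 5 mg/kg.

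The comparison of each treated group with controls of its sex asks whether GenX changed proteasome transcripts, and at which dose. In males at 5 mg/kg, 7 of the 49 tested genes rose and 0 fell at an adjusted p below 10% (edgeR quasi-likelihood test, Benjamini-Hochberg over 17877 probes): the alpha subunits Psma3 and Psma6, the ATPases Psmc2 and Psmc4, and the 19S genes Psmd5, Psmd6 and Psmd8. Among all 12412 genes, 5.59% rose and 3.75% fell in this comparison. In males at 0.5 mg/kg, 5 rose (Psma3, Psma6, Psmc2, Psmc4 and Psmd6) and 0 fell, against 1.88% and 0.733% of all genes. These 5 calls were all lost when the library of mouse 355 was kept in the fit, while those of Psmc2 and Psmd6 held when each of the 10 mice compared was left out in turn. In females at 5 mg/kg, 2 rose, the beta subunit Psmb3 and Psmd8, and 0 fell, against 2.09% and 2.00% of all genes. The number in females depended on the test. DESeq2 called 6 members up in females at 5 mg/kg (Psma3, Psma5, Psmb3, Psmb6, Psmc4 and Psmd8) where it called 3.15% of all genes up, and a fit on whole molecules called 10 (Psma3, Psma6, Psmb3, Psmb6, Psmc3, Psmc4, Psmd1, Psmd2, Psmd8 and Psmf1) where it called 9.49% of the 4290 genes it tested. In males, DESeq2 added Psme4 at 0.5 mg/kg and Psmd4 at 5 mg/kg (3.04% and 6.18% of all genes up), and whole molecules added Psme4 at 0.5 mg/kg and Psmc3 and Psmd4 at 5 mg/kg (7.16% and 17.2%). Where no tool is named below, a call is one of edgeR.

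With edgeR no member was called at 0.1 mg/kg in either sex, nor in females at 0.5 mg/kg, and 0.0403% (males, 0.1 mg/kg), 0% (females, 0.1 mg/kg) and 0.201% (females, 0.5 mg/kg) of all genes were called in either direction. An unadjusted p under 0.05 was reached by 4, 2 and 1 of the 49 tested members in the same order. Of all 12412 genes, 1598, 1191 and 1220 reached it. DESeq2 called 0 members in each of these comparisons. Of all genes it called 119 up and 59 down of 13160 in males at 0.1 mg/kg. In females it called 52 and 58 of 14144 at 0.1 mg/kg and 106 and 93 of 13488 at 0.5 mg/kg. Unadjusted in edgeR, 8 members reached a p under 0.05 in males at 0.5 mg/kg, and at 5 mg/kg 10 members in males and 16 in females did. Of all 12412 genes, 2237, 2831 and 2238 did so in the same order. The share of members was above that of all genes only in females at 5 mg/kg.

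The edgeR calls fell on strongly counted genes. Of the 49 tested genes, 14 had on average at least 20 molecules per library (Psma3, Psma6, Psmb3, Psmb6, Psmc1, Psmc2, Psmc3, Psmc4, Psmd1, Psmd2, Psmd5, Psmd6, Psmd8 and Psmd11), and every edgeR call was among them. DESeq2 also called 3 genes below this limit (Psma5, Psmd4 and Psme4). This limit was chosen after seeing the data. Of the 2092 genes of the series above the limit, 19.2% (males) and 8.99% (females) rose at 5 mg/kg, and 8.03% rose in males at 0.5 mg/kg, so that well counted genes were called more often in general. All 14 had a log2 fold change above 0 in males given 0.5 mg/kg, in males given 5 mg/kg and in females given 5 mg/kg, with medians of 0.34, 0.50 and 0.40, where the medians of the 2092 genes were 0.06, 0.06 and -0.0048. At the lower doses, 10 of the 14 lay above 0 in each of the 3 comparisons (males at 0.1 mg/kg, females at 0.1 mg/kg, females at 0.5 mg/kg), with medians of 0.10, 0.09 and 0.16. Of the 2092 genes, 1127, 1151 and 1117 lay above 0 in the same order, with medians of 0.0198, 0.0182 and 0.0224. Above these medians lay 9, 10 and 9 of the 14. The other 35 genes had fewer than 20 molecules per library, and edgeR called 0 of them.

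**Figure D1:**
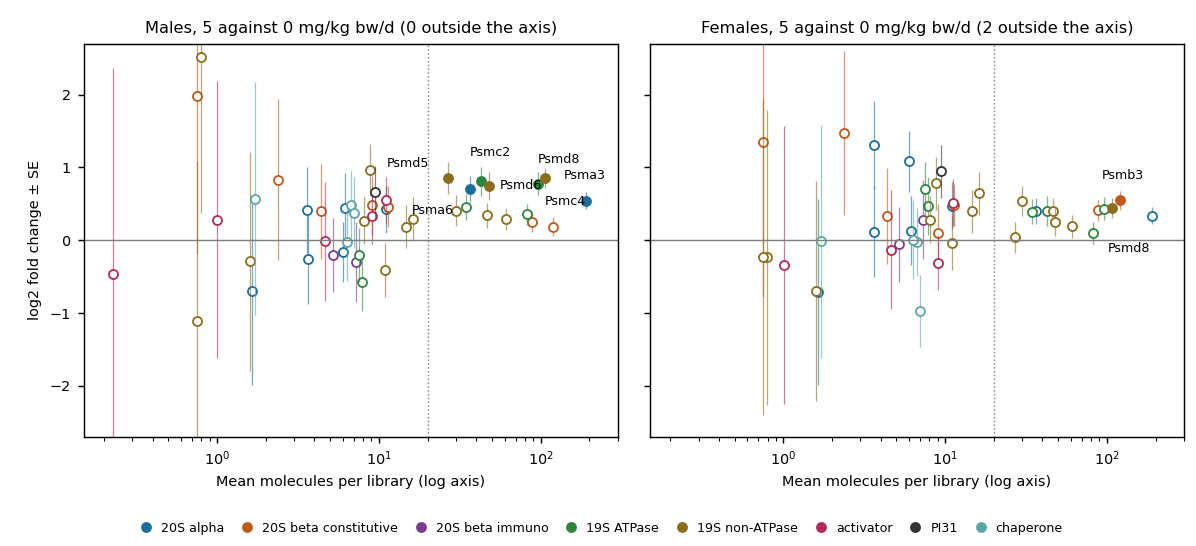
log2 fold change (y axis, ± SE) at 5 mg/kg against controls of the same sex, plotted against the mean number of molecules per library (x axis, log scale, dotted line at 20) for each tested proteasome gene except Psmc3ip, with males on the left and females on the right. Filled points passed an adjusted p below 10%, and all of them lie right of the dotted line, where every point is above 0; in females 2 genes (Psmb8 and Psme2b) lie outside the axis, and Psmb8 is not drawn in males because it had no read in either group.

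Alpha subunits form the outer rings of the core and its gate. Psma3 (chr12:70974621-70996347, GRCm38) had 306, 321, 398, 372 and 383 CPM in male controls. In males at 0.5 mg/kg it had 498, 448, 486, 472 and 521 CPM, and at 5 mg/kg 466, 504, 487, 561 and 575 CPM. Every male at both of these doses lay above every male control. How many other genes of the series separate the groups in this way was not counted, here or for the members below. Of the 2092 genes above the limit, 611 (males, 0.5 mg/kg), 1009 (males, 5 mg/kg) and 669 (females, 5 mg/kg) had an unadjusted p under 0.05 in edgeR. Such a separation is therefore not shown to be particular to these genes. The log2 fold change was 0.45 ± 0.12 at 0.5 mg/kg (adjusted p = 0.0379) and 0.54 ± 0.12 at 5 mg/kg (adjusted p = 0.001374). At 0.5 mg/kg the call was lost without mouse 101, 102 or 305, with an adjusted p of up to 0.122. At 0.1 mg/kg, males had 390, 368, 317, 416 and 493 CPM and overlapped with controls. In females, controls had 498, 495, 435, 414 and 440 CPM and mice at 5 mg/kg 579, 617, 560, 647 and 478 CPM. The female groups overlapped in the range of 1 treated mouse, and the difference of 0.34 ± 0.12 was not called by edgeR (adjusted p = 0.1599), but by DESeq2, with DESeq2's size factors in edgeR and in whole molecules.

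Psma6 (chr12:55384222-55418454) also belongs to the alpha ring. Male controls had 64.4, 78.3, 61.6, 68.0 and 61.4 CPM, and males at 0.5 mg/kg had 106, 100, 102, 106 and 92.7 CPM. At 5 mg/kg, males had 82.6, 105, 112, 122 and 123 CPM, again all above the controls. The differences were 0.60 ± 0.18 (adjusted p = 0.07707) and 0.71 ± 0.18 (adjusted p = 0.006914). The call at 0.5 mg/kg was kept only without mouse 102 or 305 and was lost without any of mice 101, 103, 104, 105, 301, 302, 303 and 304, with an adjusted p of up to 0.166. In females, controls had 69.2, 66.1, 98.4, 84.6 and 76.7 CPM and mice at 5 mg/kg 112, 99.4, 90.9, 120 and 98.4 CPM, a difference of 0.40 ± 0.18 that was not called by edgeR (adjusted p = 0.2577) but in whole molecules. The other 6 alpha genes (Psma1, Psma2, Psma4, Psma5, Psma7 and the testis form Psma8) had 1.65 to 11.03 molecules per library, and their log2 fold changes at 5 mg/kg ranged from -0.70 to 0.44 in males and from -0.71 to 1.31 in females. None of them was called by edgeR, and DESeq2 called Psma5 in females (1.08 ± 0.42 and adjusted p = 0.2264 in edgeR).

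Among the constitutive beta subunits, Psmb3 (chr11:97703399-97713500), a structural subunit without a proteolytic site, was called in females. Female controls had 249, 298, 235, 228 and 246 CPM, and females at 5 mg/kg had 285, 380, 432, 401 and 338 CPM. The lowest treated female lay below the highest control, and the other 4 lay above all controls. The difference was 0.55 ± 0.13 (adjusted p = 0.005884). In males, controls had 308, 301, 228, 297 and 306 CPM and mice at 5 mg/kg 349, 318, 331, 344 and 295 CPM. The male difference was 0.18 ± 0.13 (adjusted p = 0.5059), and the effect in males minus that in females was -0.36 ± 0.18 (adjusted p = 0.404), which was not called from reads but was called in whole molecules.

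Psmb6 carries the caspase-like site of the constitutive core. It had 190, 209, 184, 236 and 167 CPM in male controls and 230, 182, 252, 270 and 239 CPM in males at 5 mg/kg, which overlapped (0.25 ± 0.14, adjusted p = 0.3301). Female controls had 176, 256, 209, 177 and 183 CPM and females at 5 mg/kg 271, 264, 293, 228 and 277 CPM. In females 4 of the 5 treated mice lay above all controls, and the difference of 0.41 ± 0.14 missed the threshold in edgeR (adjusted p = 0.142), while DESeq2 and the fit on whole molecules called it. Psmb5, with the chymotrypsin-like site, had 25.5, 14.8, 10.2, 28.6 and 19.8 CPM in male controls and 20.5, 37.7, 24.03, 18.4 and 35.7 CPM at 5 mg/kg. The male difference was 0.46 ± 0.29 (adjusted p = 0.4002). Its level in females gave 0.48 ± 0.29 (adjusted p = 0.4521), where controls had 29.7, 32.2, 24.6, 23.5 and 34.8 CPM and treated mice 32.7, 38.1, 24.1, 42.9 and 64.6 CPM.

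Psmb7, with the trypsin-like site, was read from 2.38 molecules per library and had reads in 35 of 39 libraries. Its level was 0 to 7.24 CPM in male controls, 4.72 to 12.7 CPM in males at 5 mg/kg, 0 to 5.78 CPM in female controls and 0 to 11.4 CPM in females at 5 mg/kg. Psmb4, a structural subunit, had reads in 23 libraries. It was at 0 in 4 of the 5 male controls and had reads in every male at 5 mg/kg (4.53, 3.03, 2.44, 3.34 and 1.55 CPM), which at 0.749 molecules per library is at the level of single molecules. The differences of Psmb7 and Psmb4 were not called, and those of Psmb1 and Psmb2 were not called either. All 7 tested constitutive beta genes had a log2 fold change above 0 at 5 mg/kg in both sexes, with medians of 0.46 in males and 0.48 in females, where the medians of all genes were 0.11 and -0.01.

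**Figure D2:**
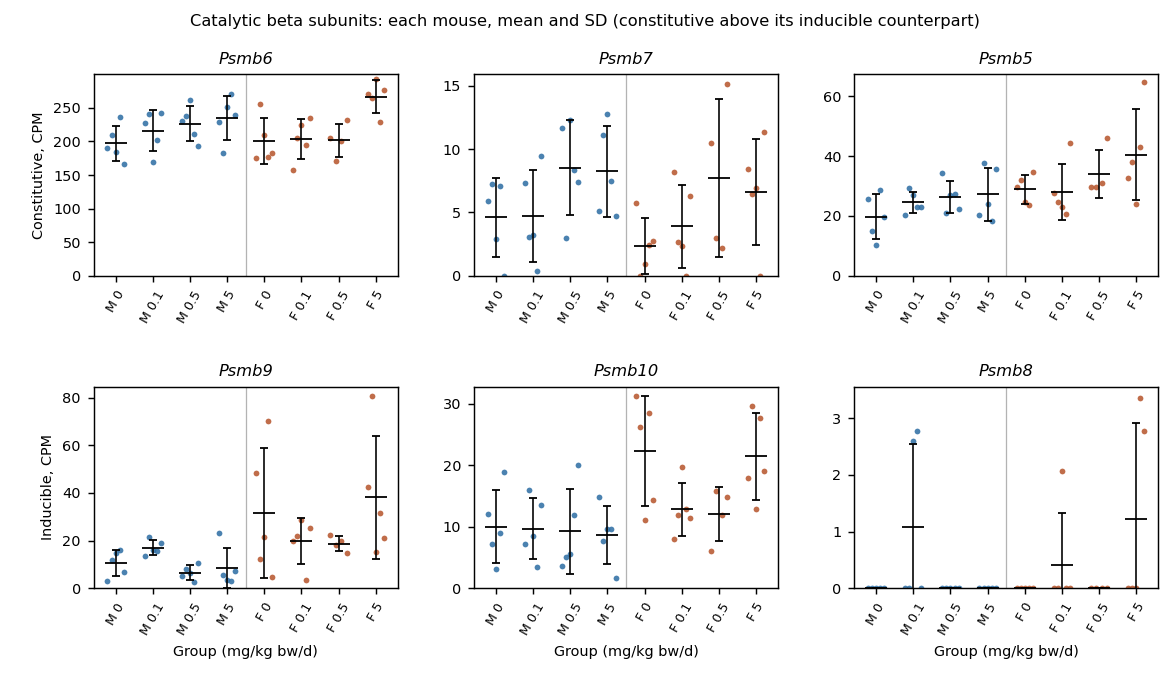
CPM after TMM scaling (y axis) of the 3 constitutive catalytic subunits (top) and of the inducible subunit that replaces each (bottom) by group (x axis, M male, F female, dose in mg/kg bw/d). Each point is 1 mouse and bars are mean and SD; the inducible genes spread widely among females, and Psmb8 was at 0 in 34 of 39 libraries.

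None of the inducible subunits was called in any comparison. Psmb9, the counterpart of Psmb6, had 2.97, 11.9, 14.8, 15.9 and 6.68 CPM in male controls and 23.04, 5.58, 3.43, 2.98 and 7.32 CPM in males at 5 mg/kg. Female controls had 48.5, 12.1, 21.7, 70.1 and 4.79 CPM and females at 5 mg/kg 42.6, 80.6, 15.4, 31.5 and 20.96 CPM. Both pairs of groups overlapped over most of their range, with a male difference of -0.30 ± 0.55 (adjusted p = 0.9997) and a female one of 0.28 ± 0.54 (adjusted p = 1). Psmb10, the counterpart of Psmb7, had 12.02, 7.16, 3.12, 8.89 and 18.9 CPM in male controls and 14.7, 7.72, 9.69, 9.66 and 1.62 CPM at 5 mg/kg. In females, Psmb10 had 31.2, 26.3, 11.1, 28.5 and 14.3 CPM in controls and 17.8, 29.6, 12.9, 27.6 and 18.99 CPM at 5 mg/kg. A further probe of Psmb10, with 4.67 molecules per library against 5.19, gave a male difference of 1.62 ± 0.64 (adjusted p = 0.1435) and a female one of 0.27 ± 0.63, where the main probe differed by -0.20 ± 0.51 and -0.06 ± 0.51. The difference between the probes was not tested. The intervals are wide, so the data do not show that these genes were unchanged. Psmb8, the counterpart of Psmb5, had reads in 5 libraries (179 reads in all), 2 of males at 0.1 mg/kg, 1 of females at 0.1 mg/kg and 2 of females at 5 mg/kg, and no fold is given for it.

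Within a library, the log2 ratio of Psmb9 to Psmb6 does not depend on the scaling, although 2 probes cannot be compared in absolute level. The mean ratio was -4.43 ± 0.91 (SD, n = 5) in male controls, and -3.66 ± 0.26, -5.22 ± 0.78 and -5.17 ± 1.23 in males given 0.1, 0.5 and 5 mg/kg. In females it was -3.21 ± 1.64, -3.63 ± 1.20, -3.43 ± 0.35 (n = 4) and -3.04 ± 0.98. Every treated mean lay within 1 SD of the control mean of its sex. The ratio of Psmb10 to Psmb7 had reads on both sides in 35 libraries and was 0.36 ± 0.46 (n = 4) in male controls and -0.10 ± 1.10 (n = 5) at 5 mg/kg, and 2.90 ± 0.62 and 1.22 ± 0.66 (n = 4 each) in the same female groups. The ratio is missing for 1 mouse of each of these female groups without a read of Psmb7. These are control mouse 152 with 306 reads of Psmb10 and mouse 454 at 5 mg/kg with 378. The female means thus leave out, in each group, a mouse in which Psmb10 exceeded Psmb7. In the remaining mice the ratio ran from 2.328 to 3.455 in controls and from 0.732 to 2.179 at 5 mg/kg. No test was run on this ratio. The summed level of 26 genes of interferon response and class I presentation was 3905 ± 271 CPM in males at 5 mg/kg and 4085 ± 365 in controls, and 5061 ± 1444 and 5179 ± 1043 CPM in females. Most of this sum came from B2m, H2-K1 and Pdia3 (means of 1463, 1472 and 624 CPM in male controls), so it says little about the less counted genes. Of the 26 genes 23 were tested. In males 1 was called at each dose, the chemokine Cxcl10, which was at 0 in all 5 male controls and at 2.91 to 7.96 CPM at 5 mg/kg. Of all genes, 0.0403%, 1.88% and 5.59% were called up in males at 0.1, 0.5 and 5 mg/kg. In females 0 of the 23 were called (edgeR), where 2.09% of all genes rose and 2.00% fell at 5 mg/kg. At that dose, 5 of the 23 had an unadjusted p under 0.05 in males and 0 in females, against 2831 and 2238 of all 12412 genes.

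The ATPase ring of the 19S particle unfolds substrates and opens the core. Psmc2 (chr5:21785283-21803787) had 79.0, 81.7, 59.5, 68.3 and 60.5 CPM in male controls. Males at 0.5 mg/kg had 115, 115, 160, 121 and 116 CPM, and males at 5 mg/kg 97.6, 161, 124, 90.2 and 139 CPM. All treated males at these doses lay above all controls, and the differences were 0.84 ± 0.20 (adjusted p = 0.01383) and 0.81 ± 0.20 (adjusted p = 0.00574). Female controls had 105, 79.1, 74.2, 96.6 and 85.7 CPM and females at 5 mg/kg 77.0, 131, 93.1, 124 and 158 CPM, which overlapped (0.40 ± 0.20, adjusted p = 0.2831). Psmc4 (chr7:28041707-28050101) had 142, 178, 212, 172 and 183 CPM in male controls. At 0.5 mg/kg it had 235, 284, 308, 231 and 259 CPM, and at 5 mg/kg 306, 296, 362, 266 and 293 CPM. Here too the groups did not overlap, with differences of 0.57 ± 0.16 (adjusted p = 0.05571) and 0.78 ± 0.16 (adjusted p = 0.0006214). The call of Psmc4 at 0.5 mg/kg was lost without mouse 101, 102, 104, 302 or 303 (adjusted p up to 0.176). In females, Psmc4 had 196, 216, 234, 149 and 202 CPM in controls and 272, 366, 217, 235 and 256 CPM at 5 mg/kg (0.43 ± 0.16, adjusted p = 0.1961), which DESeq2 and the fit on whole molecules called.

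Psmc3, also of the ATPase ring, had 76.7, 70.5, 55.1, 83.6 and 53.8 CPM in male controls and 95.3, 89.0, 101, 86.0 and 94.4 CPM in males at 5 mg/kg. Female controls had 100, 75.7, 95.8, 82.5 and 77.8 CPM and females at 5 mg/kg 113, 123, 114, 110 and 107 CPM. In both sexes every mouse at 5 mg/kg lay above every control, and neither difference passed the threshold over all probes (0.45 ± 0.17, adjusted p = 0.1286 in males, and 0.39 ± 0.17, adjusted p = 0.2577 in females). In whole molecules both were called. For Psmc1 the male difference was 0.35 ± 0.15 (adjusted p = 0.1611) and the female one 0.10 ± 0.15 (adjusted p = 1). The less counted Psmc5 gave -0.57 ± 0.40 (males) and 0.48 ± 0.40 (females), and Psmc6 gave -0.20 ± 0.38 (males) and 0.70 ± 0.38 (females), none called.

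**Figure D3:**
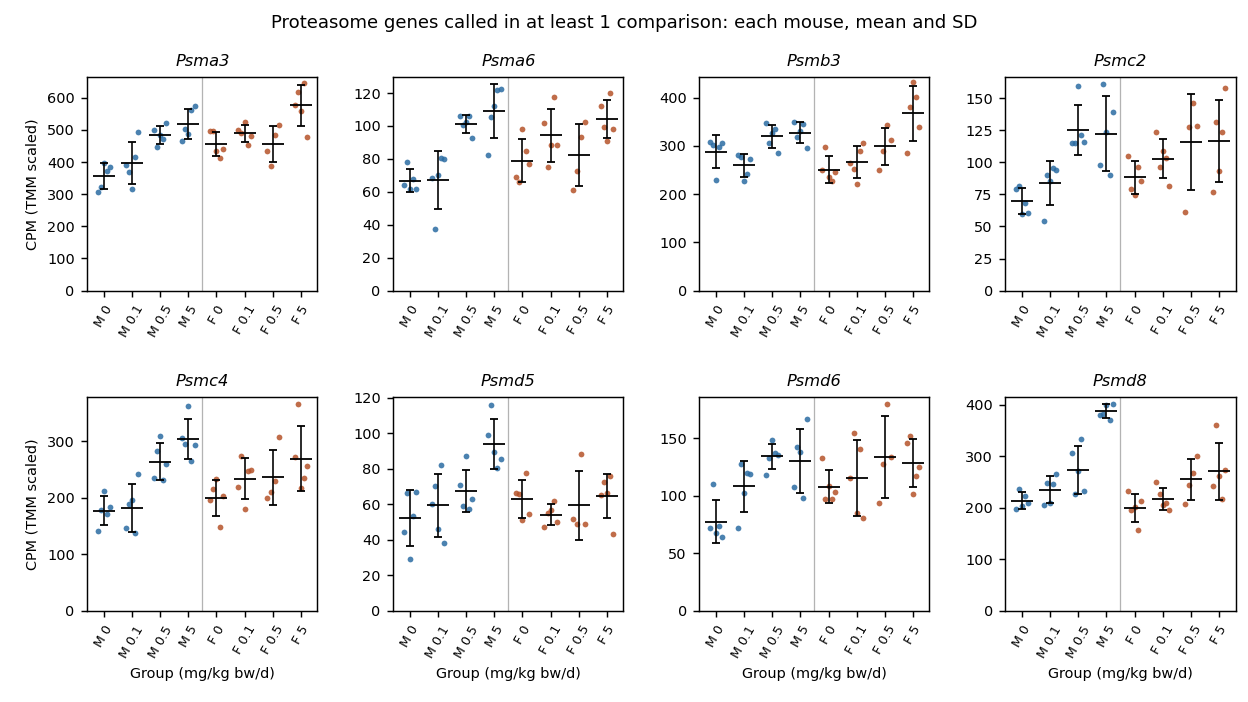
CPM after TMM scaling (y axis, from 0) of the 8 proteasome genes called in at least 1 comparison, by group (x axis, M male, F female, dose in mg/kg bw/d). Each point is 1 mouse and bars are mean and SD; Psmd8 in males at 5 mg/kg (371 to 403 CPM) lies well above all male controls (198 to 237 CPM).

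The other 19S genes include the scaffold and lid subunits, which bind ubiquitin chains and remove them. The largest fold relative to its error among all members was that of Psmd8 (chr7:29174188-29180701), a lid subunit. Male controls had 198, 237, 203, 224 and 209 CPM, and males at 5 mg/kg had 380, 383, 401, 371 and 403 CPM. The groups were far apart, and the difference was 0.86 ± 0.14 (adjusted p = 1.233e-05). At 0.5 mg/kg, males had 307, 226, 271, 333 and 233 CPM, which overlapped with controls in 2 mice (0.36 ± 0.14, adjusted p = 0.2482). In females, controls had 232, 195, 201, 157 and 214 CPM and mice at 5 mg/kg 242, 361, 262, 216 and 274 CPM. The female difference of 0.44 ± 0.14 was called (adjusted p = 0.08227), but not without any of mice 152, 153, 154, 155, 452, 453 and 455, with an adjusted p of up to 0.31. It was also not called without the low-count filter, with all 40 libraries or in a fit of only the groups compared (adjusted p up to 0.322). A further probe of Psmd8, with 6.42 molecules per library, differed by 0.37 ± 0.39 in males and 0.94 ± 0.39 in females.

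Psmd6 (chr14:14112174-14120984), another lid subunit, had 71.8, 110, 67.6, 73.5 and 64.5 CPM in male controls. Males at 0.5 mg/kg had 118, 133, 148, 137 and 135 CPM, all above the controls, and males at 5 mg/kg 107, 142, 138, 97.8 and 166 CPM, which overlapped with 1 control. The differences were 0.79 ± 0.19 (adjusted p = 0.01531) and 0.75 ± 0.19 (adjusted p = 0.007475). The second probe of Psmd6, with 9.23 molecules per library against 47.6 for the first, differed by 0.10 ± 0.29 at 0.5 mg/kg and by -0.12 ± 0.29 at 5 mg/kg, so the call rests on 1 of its 2 probes. In females, Psmd6 had 132, 96.97, 109, 97.5 and 103 CPM in controls and 146, 152, 102, 117 and 125 CPM at 5 mg/kg (0.25 ± 0.19, adjusted p = 0.7283).

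Psmd5 (chr2:34849734-34874968) is named as a 19S gene but acts as an assembly chaperone of the ATPase ring. It had 44.3, 66.1, 29.3, 53.5 and 66.8 CPM in male controls and 99.2, 116, 89.5, 80.3 and 85.7 CPM at 5 mg/kg. Every treated male lay above the controls (0.86 ± 0.22, adjusted p = 0.007376). In females, controls had 66.1, 65.9, 50.9, 77.6 and 54.4 CPM and treated mice 65.3, 72.4, 66.5, 75.8 and 43.5 CPM, with a difference of 0.04 ± 0.22. The effect in males minus that in females was 0.82 ± 0.31 (unadjusted p = 0.01088, adjusted p = 0.2017), the smallest adjusted p among members for a sex difference at this dose. With all 40 libraries in the fit, the male calls of Psmd5 and Psmd6 at 5 mg/kg were lost (adjusted p = 0.102 and 0.203).

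Psmd4, the ubiquitin receptor Rpn10, had 21.2, 14.1, 6.71, 20.1 and 22.3 CPM in male controls and 29.5, 35.5, 40.2, 24.6 and 34.8 CPM in males at 5 mg/kg. All treated males lay above all controls, and the difference of 0.96 ± 0.36 missed the threshold in edgeR (adjusted p = 0.1168). It was called by DESeq2, in whole molecules and in a fit of only the groups compared. In females, controls had 14.4, 10.1, 26.4, 18.3 and 16.8 CPM and treated mice 26.2, 41.5, 23.7, 33.6 and 22.6 CPM (0.78 ± 0.36, adjusted p = 0.2577). A further probe of Psmd4, with 1.69 molecules per library, differed at 5 mg/kg by -0.82 ± 1.61 in males and -4.63 ± 1.90 in females. Of the other Psmd genes, the scaffold subunits Psmd1 and Psmd2 had 0.34 ± 0.17 and 0.41 ± 0.21 in males and 0.40 ± 0.17 and 0.54 ± 0.21 in females, and the lid subunit Psmd11 had 0.29 ± 0.15 and 0.19 ± 0.15, with adjusted p-values from 0.2378 to 0.7799. In whole molecules, Psmd1 and Psmd2 were called in females. The lid subunits Psmd3 and Psmd7 had fewer than 1 molecule per library, and the 14 Psmd genes had a median at 5 mg/kg of 0.32 (males) and 0.27 (females).

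The activators open the core without ATP. Psme2 (PA28 beta, induced by interferon gamma) had 18.2, 8.01, 24.2, 29.5 and 24.7 CPM in male controls and 40.5, 43.1, 28.4, 17.7 and 23.4 CPM in males at 5 mg/kg. Female controls had 34.4, 32.95, 37.3, 19.9 and 13.5 CPM and females at 5 mg/kg 35.8, 62.9, 22.9, 38.8 and 37.2 CPM. The groups overlapped in both sexes (0.55 ± 0.32, adjusted p = 0.3387, and 0.52 ± 0.32, adjusted p = 0.4938). Psme2b is a near copy of Psme2 and had reads in 8 libraries, so reads of the pair may not be told apart.

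Psme4 (PA200) had 29.8, 11.3, 11.4, 27.5 and 9.12 CPM in male controls and 20.7, 21.03, 36.3, 13.2 and 20.6 CPM at 5 mg/kg. At 0.5 mg/kg it had 24.9, 32.9, 51.5, 44.8 and 41.1 CPM, of which 1 mouse overlapped with controls, and the difference of 1.13 ± 0.38 missed the threshold (adjusted p = 0.1498), while DESeq2 and the fit on whole molecules called it. In females, Psme4 had 23.04, 13.6, 18.8, 13.1 and 29.2 CPM in controls and 12.9, 14.6, 18.7, 13.3 and 19.4 CPM at 5 mg/kg. In both sexes the groups at 0 and 5 mg/kg overlapped. Psmf1, which encodes the inhibitor PI31, had 29.4, 24.9, 32.3, 18.1 and 8.49 CPM in male controls and 31.8, 43.1, 41.04, 25.5 and 37.2 CPM at 5 mg/kg (0.66 ± 0.36, adjusted p = 0.2959). Female controls had 20.4, 20.4, 14.6, 11.4 and 28.2 CPM and females at 5 mg/kg 41.1, 31.4, 44.8, 34.96 and 31.4 CPM. The female groups did not overlap, and the difference of 0.95 ± 0.36 was not called by edgeR (adjusted p = 0.2226) but in whole molecules. A further probe of Psmf1, with 3.31 molecules per library, differed at 5 mg/kg by -0.30 ± 0.96 in males and -0.26 ± 0.96 in females.

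The Psmg chaperones assemble the alpha ring. Psmg1 had 13.1, 14.5, 27.2, 12.4 and 5.60 CPM in male controls and 26.01, 25.7, 13.4, 14.1 and 22.7 CPM at 5 mg/kg. In females it had 7.14, 15.3, 32.04, 12.3 and 10.4 CPM in controls and 8.58, 21.6, 15.2, 13.02 and 17.3 CPM at 5 mg/kg. Psmg2, its partner, had 8.09, 12.6, 34.2, 13.1 and 9.12 CPM in male controls and 20.95, 36.4, 8.70, 18.3 and 15.9 CPM at 5 mg/kg. In females Psmg2 had 36.3, 7.21, 16.8, 13.7 and 12.6 CPM in controls and 10.8, 5.28, 15.9, 5.05 and 7.17 CPM at 5 mg/kg. All these groups overlapped, and Psmg2 differed by 0.38 ± 0.49 (adjusted p = 0.9278) in males and by -0.97 ± 0.49 (adjusted p = 0.2976) in females. None of the 4 chaperone genes was called in any comparison, and their medians at 5 mg/kg were 0.43 in males (0.07 without mouse 402, 0.26 without mouse 105) and -0.02 in females (-0.297 without mouse 155, 0.123 without mouse 153).

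**Figure D4:**
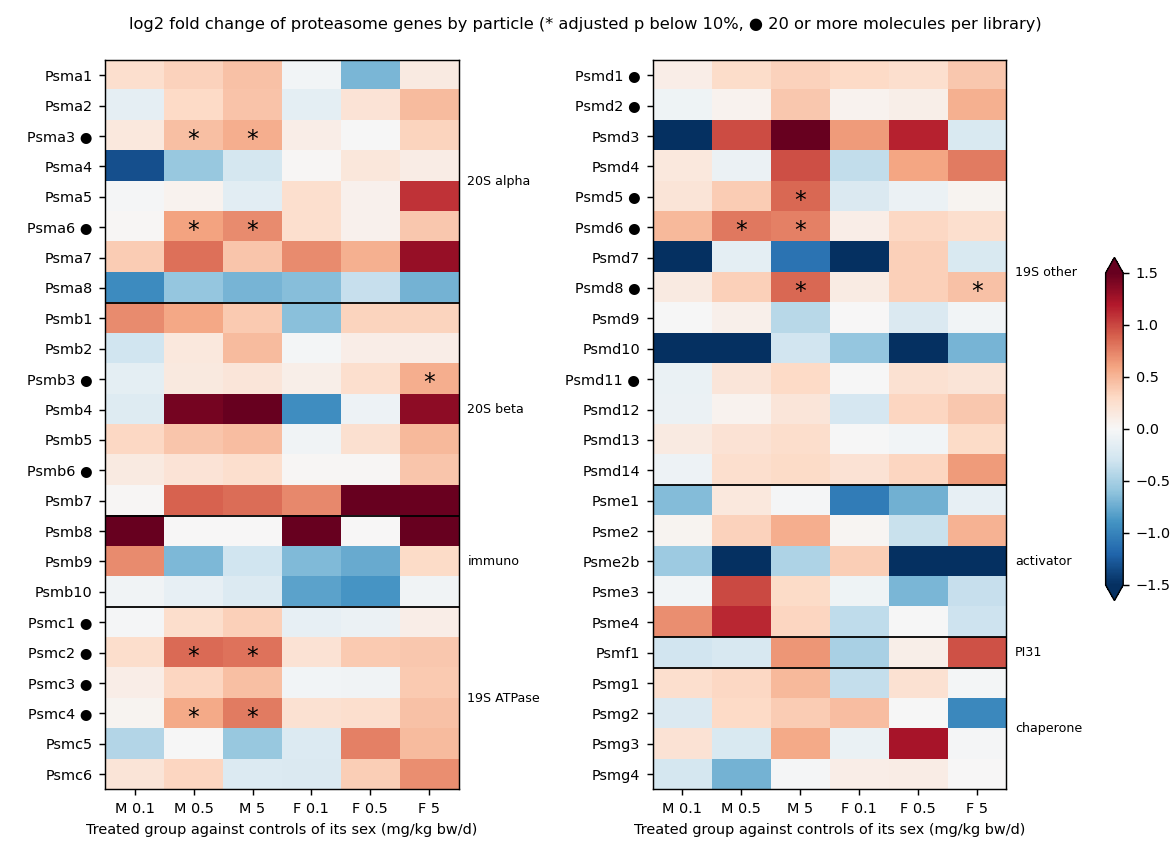
log2 fold change against controls of the same sex (color, limited at ± 1.5) of 48 tested proteasome genes (rows, by particle) in the 6 comparisons (columns, M male, F female, dose in mg/kg bw/d). A star marks an adjusted p below 10% and a dot at least 20 molecules per library. The stars lie in the 20S and 19S gene classes at 0.5 and 5 mg/kg, among them Psmd5, which acts as an assembly chaperone. Extreme colors without a dot belong to genes with few molecules (white fields of Psmb8 had no read in either group).

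Read by particle at 5 mg/kg, the medians were 0.42 for 20S alpha, 0.46 for constitutive beta, 0.40 for the 19S ATPases and 0.32 for the other 19S genes in males, and 0.37, 0.48, 0.42 and 0.27 in females. The inducible beta subunits had -0.20 in males and 0.28 in females, and the activators 0.28 and -0.31. Single mice turned the sign of 2 of these, with -0.187 for the inducible subunits in females without mouse 452 and -0.037 for the activators in males without mouse 103. The alpha median in males was 0.246 without mouse 402 and 0.247 without mouse 102. At 0.5 mg/kg in males, the same 4 core and regulator classes had 0.32, 0.41, 0.32 and 0.20, where the median of all genes was 0. Without mouse 102 the alpha median there was 0.136 and without mouse 305 it was 0.156, the constitutive beta median was 0.246 without mouse 103, and that of the other 19S genes was 0.125 without mouse 101 and 0.13 without mouse 301. At 0.1 mg/kg in males, they lay between -0.03 and 0.07, and in females between -0.08 and 0.06. In females at 0.5 mg/kg they were 0.06, 0.23, 0.31 and 0.28, and the last 3 were 0.073 without mouse 154, 0.175 without mouse 354 and 0.145 without mouse 353. Classes hold different numbers of strongly counted genes, so these medians describe the members and do not rank the particles.

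Averaged per mouse over the 14 well counted genes, the mean log2 CPM was 6.94 ± 0.13 (SD, n = 5) in male controls, and 7.02 ± 0.12, 7.33 ± 0.06 and 7.48 ± 0.09 in males given 0.1, 0.5 and 5 mg/kg. Control males ranged from 6.76 to 7.09, males at 0.5 mg/kg from 7.25 to 7.42 and males at 5 mg/kg from 7.38 to 7.56, so that both treated groups lay above all controls and overlapped with each other. In females, it was 7.05 ± 0.04, 7.12 ± 0.10, 7.18 ± 0.20 (n = 4) and 7.39 ± 0.10. Only females at 5 mg/kg (7.28 to 7.54) lay above all female controls (6.98 to 7.09). No p is given for this mean, since its genes were chosen on these data.

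By particle, the same order held in males for the alpha, ATPase and other 19S genes, while the 2 beta genes of this set overlapped between male controls (7.68 to 8.05) and males at 5 mg/kg (7.91 to 8.25). In females, the beta genes had the widest gap in means, with 7.80 ± 0.18 in controls and 8.28 ± 0.13 at 5 mg/kg. Residuals from the group means were weakly correlated across the 39 libraries, with a median Pearson r of 0.174 over 23 pairs of genes of the same particle and 0.116 over 68 pairs of different particles. The median over all pairs of the 2092 genes was 0.008, and all pairs share libraries, scaling and depth.

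**Figure D5:**
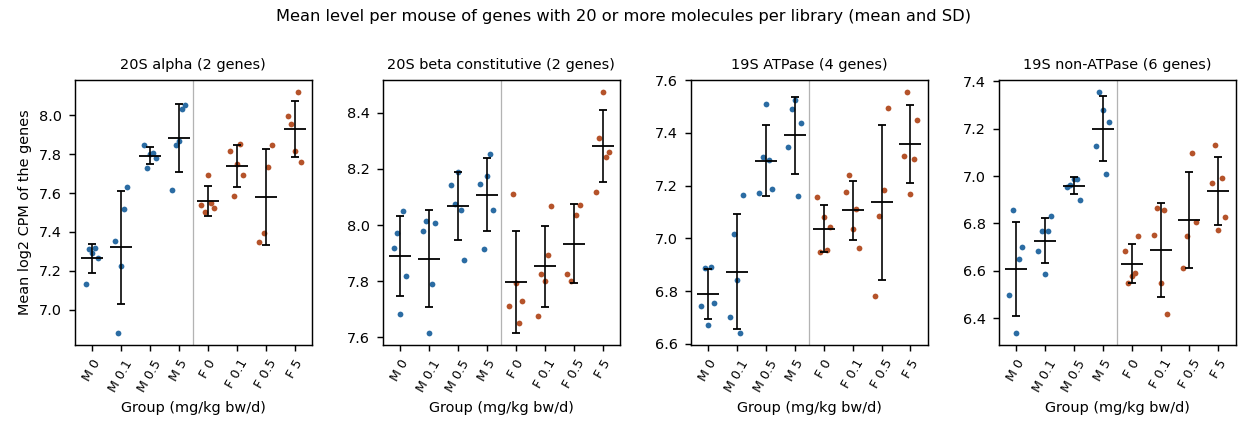
Mean log2 CPM per mouse (y axis, not from 0) of the proteasome genes with at least 20 molecules per library, for 4 particle classes, by group (x axis, M male, F female, dose in mg/kg bw/d). Each point is 1 mouse and bars are mean and SD; in the 19S ATPase panel males at 0.5 and 5 mg/kg (7.16 and higher) lie above all male controls (up to 6.89).

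Whether the sexes differed was tested as the effect in males minus that in females. No member was called at any dose with edgeR, against 0%, 0.322% and 1.19% of all genes at 0.1, 0.5 and 5 mg/kg. DESeq2 called 0 members at each dose. Of all genes it called 85 up and 54 down of 14144 at 0.1 mg/kg, and 165 and 115 of 12401 at 0.5 mg/kg. At 5 mg/kg it called 204 and 199 of 12220. In edgeR, an unadjusted p under 0.05 was reached by 2, 3 and 4 of the 49 tested members, against 990, 1333 and 1563 of all 12412 genes. The share of members was below that of all genes at each dose. In whole molecules, 1 member was called, Psmb3 at 5 mg/kg, with the larger value in females. That fit called 121 of its 4290 genes with the larger value in males and 189 with the larger value in females. For the genes called in males at 5 mg/kg, the differences were 0.21 ± 0.17 for Psma3, 0.31 ± 0.25 for Psma6, 0.41 ± 0.28 for Psmc2, 0.34 ± 0.23 for Psmc4, 0.82 ± 0.31 for Psmd5, 0.50 ± 0.27 for Psmd6 and 0.42 ± 0.20 for Psmd8. All 7 point to a larger value in males, as their choice by calls in males favors, and that of Psmb3, called in females, points the other way. The calls made in males and not in females are therefore not shown to differ between the sexes.

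Genes that work with the proteasome were counted on a list of 20 other cofactors, of which 18 were tested. In males, 3 rose at 0.5 mg/kg and 4 at 5 mg/kg, in females 2 at 5 mg/kg, and 0 fell. Of all genes, 1.88%, 5.59% and 2.09% rose in the same comparisons. Nfe2l1, the transcription factor of proteasome genes, was called in 3 of these comparisons. It had 322 ± 43.6 CPM (SD, n = 5) in male controls, 442 ± 48.3 at 0.5 mg/kg and 493 ± 16.6 at 5 mg/kg (0.46 ± 0.12 and 0.62 ± 0.12, adjusted p = 0.03454 and 0.0003039). In females it had 418 ± 57.0 CPM in controls and 548 ± 65.2 CPM at 5 mg/kg (0.39 ± 0.12, adjusted p = 0.07424). The thioredoxin-like 19S partner Txnl1 rose by 0.96 ± 0.19 in males at 5 mg/kg, and Akirin2, which brings proteasomes into the nucleus, by 1.06 ± 0.25. Akirin2 was the list's only gene called for a sex difference, with 1.30 ± 0.35 in males minus females at 5 mg/kg (adjusted p = 0.06878). Sem1, a small lid subunit whose symbol lies outside the Psm series, rose by 0.98 ± 0.30 in males at 5 mg/kg. Ecpas was named after its values were seen. In females at that dose Ecpas, which encodes a scaffold that binds the 19S particle, rose by 1.26 ± 0.40.

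Of 13 genes for ubiquitin, its activation and the p97 unfoldase, Vcp and Rps27a rose in males at 5 mg/kg, against 5.59% of all genes. At 0.5 mg/kg 1 of them, Vcp, rose in males, against 1.88% of all genes. In females 0 of the 13 were called, where 2.09% of all genes rose and 2.00% fell at 5 mg/kg. Vcp, which encodes p97 and extracts ubiquitinated proteins for the proteasome, had 69.8 ± 7.52 CPM in male controls, 133 ± 25.7 at 0.5 mg/kg and 121 ± 27.1 at 5 mg/kg (0.93 ± 0.19 and 0.80 ± 0.19, adjusted p = 0.002106 and 0.00316). In females it had 101 ± 10.6 CPM in controls and 129 ± 13.6 CPM at 5 mg/kg, not called. Rps27a, a ubiquitin fusion gene, rose by 0.63 ± 0.21 in males at 5 mg/kg (adjusted p = 0.06491).

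Markers of other cells of the section were read beside these genes, and their part in the results was not tested. Of 11 tested macrophage markers, 1 (Lyz2) rose in males at 5 mg/kg, against 5.59% of all genes. The summed level of the 12 listed was 192 to 332 CPM in males at 5 mg/kg and 163 to 287 CPM in male controls. In females it was 210 to 527 CPM at 5 mg/kg and 281 to 462 CPM in controls. Of 8 tested lymphocyte and leukocyte markers, 0 were called in either sex with edgeR at 5 mg/kg. Of all genes, 5.59% rose and 3.75% fell in males, and 2.09% and 2.00% in females. An unadjusted p under 0.05 was reached by 1 of the 8 in males and 4 in females, against 2831 and 2238 of all 12412 genes. The 13 listed summed to 10.9 to 23.1 CPM in males at 5 mg/kg and 6.50 to 21.6 CPM in male controls. In females the sum was 11.04 to 23.3 CPM at 5 mg/kg and 18.9 to 58.3 CPM in controls.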

How the data were processed

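TempO-Seq libraries were made from formalin-fixed liver sections of 40 mice, 5 per sex and dose. The authors deposited raw counts for 30146 probes in every mouse, without normalization; bcl2fastq 2.17.1.14, Bowtie and mm10 are named in the submitters' processing notes. The depth was 10341341 to 15562253 reads in the 39 libraries used.

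Counts were tested with edgeR 4.0.16 in R 4.3.3 (TMM, default low-count filter, quasi-likelihood F-test, 1 coefficient per group, 17877 probes, Benjamini-Hochberg, threshold 10%, two-sided). Log2 CPM used a prior count of 2. Molecules are counts divided by the first peak of a library's count histogram, smoothed with an SD of 2 reads and searched from 10 to 100 reads. Reads carry no molecular identifiers, so depth covers counting error only. Fits and peak finding were tested on simulated data. Each replicate is 1 mouse.

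The members, the particle classes and the gene lists were chosen with earlier results of these data known. Named were the catalytic pairs, the 2 genes per other particle with the smallest mean rank of p over both sexes at 5 mg/kg, and every member called. Mouse values are printed for controls and 5 mg/kg, and for males at 0.5 mg/kg for most genes called in males and for Psme4, and at 0.1 mg/kg for Psma3. The ratio of a catalytic pair was formed where both genes had reads. Positions are from GENCODE (GRCm38), and probe positions were not used here. Alternatives were DESeq2 1.42.0, its size factors in edgeR, no low-count filter, all 40 libraries, only the groups compared, summed probes, a threshold of 5%, a prior count of 0.5 and each mouse left out; counts in whole molecules were added after seeing the data.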

Additional observations from a re-analysis of the deposited data

Results flagged for a closer look

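In groups of 4 or 5 mice, a mouse was set apart when its distance from the nearest other mouse took up more of the group's range than Dixon's 95% limit allows. Chance flags about 1 in 20 groups, and 9 of the 96 groups examined were flagged, 8 for a gene level and 1 for a ratio. In males at 0.1 mg/kg, Psma6 had 37.6 CPM in mouse 202, where the others had 68.3 to 80.5, and Psmc2 had 54.4 CPM in mouse 201, where the others had 85.4 to 95.3. In male controls, Psmb3 had 228 CPM in mouse 103 (others 297 to 308), and Psmd6 had 110 CPM in mouse 102 (others 64.5 to 73.5). Psmc2 had 160 CPM in male mouse 303 at 0.5 mg/kg (others 115 to 121) and 61.7 CPM in female mouse 351 at 0.5 mg/kg (others 127 to 146). Psmd5 had 88.3 CPM in female mouse 353 at 0.5 mg/kg (others 48.7 to 51.5) and 43.5 CPM in female mouse 455 at 5 mg/kg (others 65.3 to 75.8). The log2 ratio of Psmb9 to Psmb6 was -5.77 in female mouse 254 at 0.1 mg/kg, where the others had -3.22 to -2.96.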

How the results depend on the processing

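The number of members called in males at 5 mg/kg stayed between 5 and 9 of 49 under the alternatives, and no called value changed sign under any of them. In males at 0.5 mg/kg, where 5 were called, the number was 3 with DESeq2's size factors in edgeR, without the low-count filter and at a threshold of 5%, 0 with all 40 libraries, 6 with DESeq2 and 6 in whole molecules, and 3 to 4 when each mouse was left out (3 without mouse 101, 102, 104, 302 or 303). In females at 5 mg/kg, where 2 were called, it was 6 with DESeq2 (3.15% of all genes up), 10 in whole molecules (9.49%), 1 without the low-count filter, with all 40 libraries, with only the groups compared or at 5%, and 1 to 2 when each mouse was left out (1 without mouse 153, 154 or 452). Without mouse 152, 155, 453 or 455 the number stayed at 2, but Psmd8 was not among the genes called. In whole molecules, 1 member, Psmb3, was called for a sex difference at 5 mg/kg (-0.47, larger in females), where 0 were called from reads. Of the 4290 genes in whole molecules, 121 were called with the larger value in males and 189 in females. With all 40 libraries, the median of the other 19S genes in females at 0.5 mg/kg was 0.015 and that of the activators -1.02. In whole molecules, the activator medians were -0.128 at 0.5 mg/kg and 0.146 at 5 mg/kg in females, and the chaperone median in females at 5 mg/kg was -1.01. When each mouse was left out, the chaperone median ran from -0.291 to 0.305 in males at 0.1 mg/kg and from 0.07 to 0.587 in males at 5 mg/kg, and the activator median from -0.784 to -0.277 in females at 0.5 mg/kg. The cause was not tested in any of these. DESeq2's size factors put the median of all genes in males at 5 mg/kg at 0.04, where TMM put it at 0.11. No paired analysis was possible because the groups share no replicate numbers. Depth limits the 35 members with fewer than 20 molecules per library.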
